A study of Mus musculus with 2 samples.

Results

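The nuclear genes for oxidative phosphorylation outside complex IV were taken by symbol: Nduf genes of the a, b, c, s and v series (complex I), Sdha to Sdhd (complex II), Uqcr genes (complex III) and Atp5 genes (complex V). They were chosen by that symbol and by their total count: at least 50 UMIs in each library, summed over barcodes of at least 1500 UMIs. A UMI (unique molecular identifier) marks 1 captured RNA molecule. All 67 matching symbols among 32285 genes passed: 38 of complex I, 4 of complex II, 8 of complex III and 17 of complex V. The gene nearest the limit was Ndufa4l2, with 117 UMIs in Tsc1 RPE KO and 138 in Tsc1 flox, and no matching symbol fell under it. The set follows names. Ndufa4, named as a complex I gene, encodes a protein that is now counted as a subunit of complex IV, and Ndufa4l2 is its paralogue, so results that turn on them are also given without them.

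The study profiled mouse retinal pigment epithelium (RPE) and choroid by 3′ droplet single-cell RNA sequencing in 2 libraries, 1 per genotype. The Tsc1 RPE KO library (KO) came from mice with the conditional Tsc1tm1Djk/J allele and the Best-Cre transgene, which the labels call RPE-specific. The Tsc1 flox library (flox) came from mice with the same Tsc1tm1Djk/J allele and no Cre. Each library pooled 1 male and 1 female aged 10 weeks. Eyes were freed of neural retina, and live cells were sorted from the enzyme digest of the rest. With 1 library per genotype no difference between genotypes could be tested: genotype and library cannot be told apart, and no p-value is given. The 95% intervals are exact, unless called approximate, and cover counting error only.

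Complexes I and II feed electrons from NADH and from succinate into the respiratory chain, complex III passes them on to cytochrome c, and complex V (ATP synthase) uses the proton gradient to make ATP. Complexes I, III and V also hold subunits encoded in mitochondrial DNA, while all subunits of complex II are nuclear. RPE cells are rich in mitochondria, and the rod inner segment packs mitochondria at high density. Tsc1 protein restrains mTORC1, a growth-control kinase complex.

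Of 1825 KO and 1521 flox cells, 39 and 12 were RPE-like, 166 and 42 rod-like, 47 and 41 endothelial-like, 172 and 263 fibroblast-like, 121 and 170 NK-like, 372 and 340 T cell-like, 320 and 413 B cell-like, and 440 and 89 monocyte-like. A further class of 130 KO and 119 flox cells, led by F13a1, Wfdc17, Fn1, Cd14 and Lyz2, stayed unnamed. The 67 genes and the mitochondrially encoded genes were left out of the clustering. The RPE-like class held 98121 UMIs in KO and 32094 in flox, with a median of 2298 UMIs per cell in KO and 2582 in flox. It showed 7 of its 8 markers, and Best1 had 0 UMIs in both libraries. The marker sum was 135374 counts per 1000000 UMIs of the class (CPM) in KO and 139372 CPM in flox. Rpe65 stood lower in KO, at 1885 CPM in KO and 6201 CPM in flox, as did Rgr and Rrh. Lrat stood higher in KO, at 1784 CPM in KO and 748 CPM in flox. Ttr, Rdh5 and Rlbp1 were close between the libraries. Of 5 melanocyte markers, which include Dct and Tyrp1 that RPE also makes, 4 were seen in each library, at a sum of 2589 CPM in KO and 1371 CPM in flox RPE-like cells, and their part in the results was not tested. Tsc1 had 0 UMIs in RPE-like cells of both libraries, which allows up to 30.6 CPM in KO and 93.5 CPM in flox, and 3′ tags do not check the deletion. The libraries shared 2 cell barcodes.

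RPE-like cells gave these genes the largest share of their RNA among the 9 classes described, and rod-like cells the next largest, in both libraries. The 67 genes made up 3.67% (3.55 to 3.79) of RPE-like UMIs in KO and 3.64% (3.43 to 3.85) in flox. In rod-like cells the share was 2.37% (2.33 to 2.41) in KO and 2.93% (2.84 to 3.03) in flox. Within that class a cluster of 23 KO and 18 flox cells at resolution 2 reached 3.30% in KO and 4.05% in flox. The other classes lay between 1.01% and 1.62% in KO and between 1.16% and 1.59% in flox, below both leading classes in each library. Barcodes of 10 to 100 UMIs, taken to hold free RNA, carried 1.46% in KO and 1.29% in flox. Single RPE-like cells lay between 1.28% and 7.46% in KO, with a median of 3.56%, and between 1.68% and 4.99% in flox, with a median of 3.70%. With each cell thinned to 1500 UMIs the median was 3.53% in KO and 3.83% in flox. Shares and CPM are relative to all RNA of a class, so a higher value cannot be told from less RNA of other genes.

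**Figure D1:**
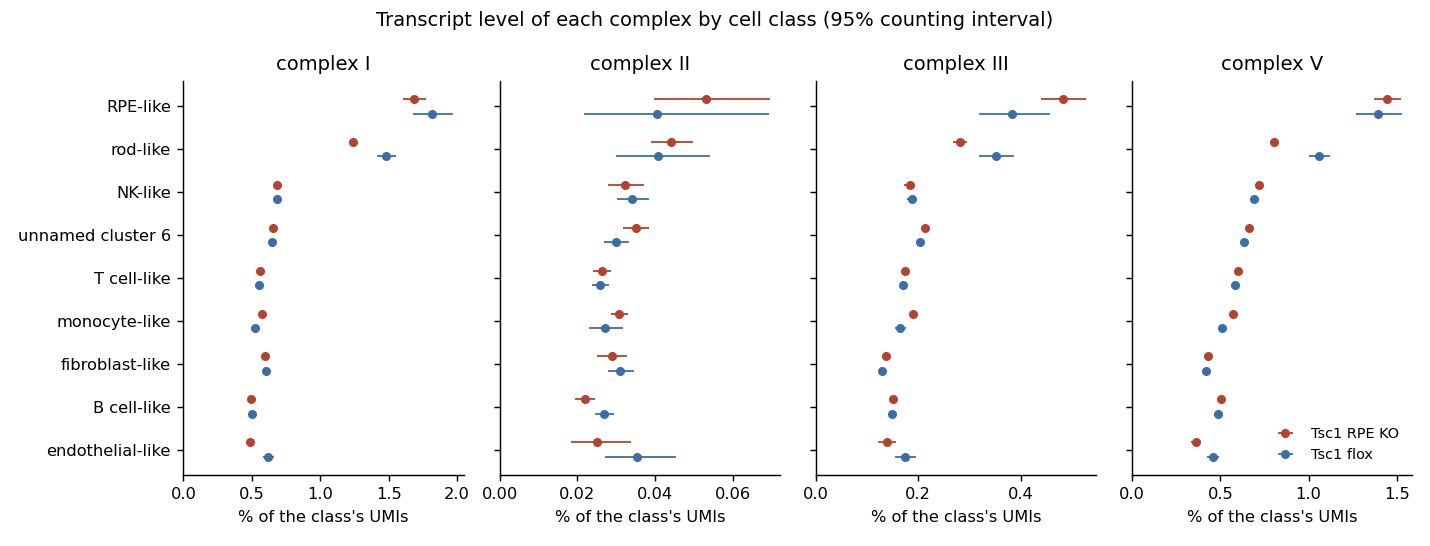
Percent of each class's UMIs that came from the genes of complexes I, II, III and V, by cell class, with the KO bar above the flox bar of each class. Summed over the panels, RPE-like cells stand at 3.67% in KO and 3.64% in flox, and rod-like cells at 2.37% in KO and 2.93% in flox.

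The complexes differed in level by class. In RPE-like cells complex I genes held 1.69% of UMIs in KO and 1.82% in flox, and complex V genes 1.45% in KO and 1.39% in flox. Complex III genes held 0.482% in KO and 0.383% in flox, and complex II genes 0.0530% in KO and 0.0405% in flox. In fibroblast-like cells complex I held 0.595% in KO and 0.606% in flox, and complex V 0.432% in KO and 0.419% in flox. RPE-like cells exceeded fibroblast-like cells 2.84-fold in KO (2.68 to 3.0) and 3.0-fold in flox (2.75 to 3.27) for complex I. For complex III the ratio was 3.50 in KO (3.13 to 3.90) and 2.95 in flox (2.44 to 3.55), and for complex V 3.35 in KO (3.14 to 3.56) and 3.33 in flox (3.01 to 3.67). Complex II stood nearest to the fibroblast-like level, at 1.84-fold in KO (1.33 to 2.50) and 1.31-fold in flox (0.69 to 2.26), and its flox interval spans 1. Rod-like cells exceeded fibroblast-like cells 2.09-fold in KO and 2.44-fold in flox for complex I, 2.04-fold in KO and 2.71-fold in flox for complex III, 1.86-fold in KO and 2.53-fold in flox for complex V, and 1.53-fold in KO and 1.31-fold in flox for complex II.

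Within the complexes the ratio of RPE-like to fibroblast-like cells differed by the subunit's place. In complex I the core subunits, which carry the flavin and iron-sulfur clusters, stood at 1.80 in KO (1.47 to 2.19) and 1.04 in flox (0.66 to 1.58). The accessory subunits around that core stood at 2.87 in KO (2.70 to 3.06) and 3.09 in flox (2.81 to 3.39). In complex III the core and Rieske iron-sulfur proteins had 1.48 in KO (1.02 to 2.1) and 1.68 in flox (0.89 to 2.93), while the small subunits had 3.97 in KO (3.53 to 4.46) and 3.24 in flox (2.64 to 3.94). In complex V the F1 head, which makes ATP, had 2.05 in KO (1.78 to 2.35) and 2.44 in flox (1.97 to 3.0). Its supernumerary membrane subunits, small proteins of the membrane part that are known from dimers of the enzyme, had 5.12 in KO (4.63 to 5.65) and 4.90 in flox (4.19 to 5.71). The intervals of the supernumerary and F1 subunits did not overlap in either library. Rod-like cells showed a flatter order in KO, with 2.01 for supernumerary subunits against 1.81 for F1 subunits, and 3.29 against 2.22 in flox.

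**Figure D2:**
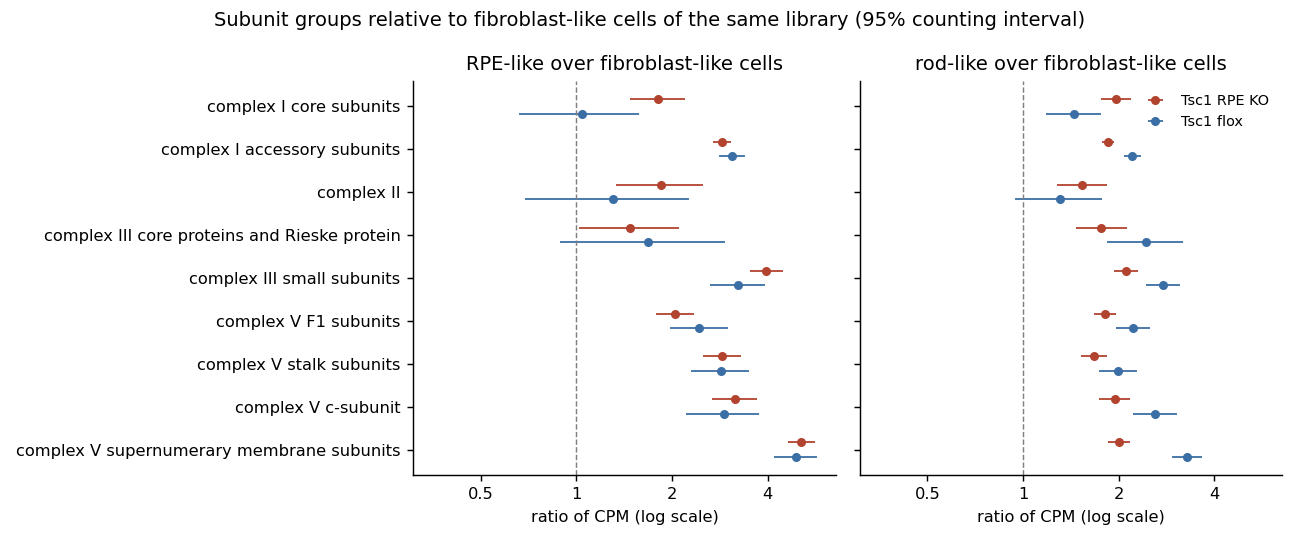
Ratio of RPE-like and of rod-like to fibroblast-like CPM for 9 groups of subunits by role, in each library, with 95% counting intervals, on a log axis. Supernumerary membrane subunits of complex V are highest in RPE-like cells among the groups drawn, at 5.12 in KO and 4.90 in flox.

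Single genes ranged widely around these group ratios. Atp5mpl (chr12:111961375-111966977, mm10, minus strand), a supernumerary subunit of complex V, had 1926 CPM in KO and 1340 CPM in flox RPE-like cells, and 157 CPM in KO and 146 CPM in flox fibroblast-like cells. That is 12.3-fold in KO (9.71 to 15.6) and 9.16-fold in flox (6.39 to 12.9), the highest of the 67 genes in both libraries. Atp5k (subunit e) followed at 8.53-fold in KO and 7.79-fold in flox. At the other end Sdha, the flavoprotein of complex II, had 4 UMIs in KO and 1 in flox RPE-like cells, or 0.49 of the fibroblast-like level in KO (0.13 to 1.33) and 0.30 in flox (0.01 to 1.69). The core protein Uqcrc2 of complex III, at 0.77 in KO and 1.07 in flox, also lay near the fibroblast-like level on few UMIs. Atp5a1, the F1 alpha subunit, reached 1.55 in KO (1.03 to 2.27) and 1.45 in flox (0.71 to 2.63).

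Of 64 genes with at least 50 UMIs over both classes in each library, 48 (75%) were at least 1.5-fold higher in RPE-like than in fibroblast-like cells in both libraries, beside 10.7% of the 3161 genes measured in the same way. Ndufs1, Ndufa9 and Sdhc had too few UMIs. The count held 16 of 17 genes of complex V (all but Atp5a1), 26 of 36 of complex I, 5 of 8 of complex III and 1 of 3 of complex II. Within complex I it held 24 of 28 accessory but 1 of 6 core genes. Sdha was at least 1.5-fold lower in both libraries, beside 33.3% of all genes measured. The median log2 ratio was 1.44 in KO and 1.33 in flox for these genes, and -1.18 in KO and -0.29 in flox for all genes measured. A gene at 0 UMIs in RPE-like cells was set to 3 counts, or 30.6 CPM in KO and 93.5 CPM in flox. The values for all genes can depend on that floor, and its part was not tested. They also depend on the limit of 50 UMIs over both classes. Fibroblast-like cells held 764557 UMIs in KO and 1135213 in flox, against 98121 in KO and 32094 in flox RPE-like cells. Genes high only in RPE-like cells could thus miss the limit, and the part of this choice was not tested. In rod-like cells 42 of 67 (62.7%) were at least 1.5-fold higher than in fibroblast-like cells in both libraries, beside 18.2% of 4338 genes measured. Ndufa4l2 was lower, beside 34.6%. Flox rod-like cells held 115824 UMIs, so the same caution on the UMI limit applies.

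Over all 9 classes, RPE-like cells held the highest level of 32 of the 67 genes in both libraries, beside 5.16% of the 9887 genes with at least 50 UMIs over the classes in each library. Rod-like cells held that of 14, beside 13.3% of those genes. Genes high only in a class with few UMIs, such as RPE-like cells, could miss this limit too. RPE-like cells led for 10 of 17 complex V genes and 17 of 38 complex I genes. The remaining genes changed their leading class between libraries, apart from Ndufa4l2 and 2 genes led by the unnamed class.

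The genes with the widest range over the 7 named classes of at least 20 cells in each library, which leaves out RPE-like cells, were Ndufa4l2, Ndufa4, Uqcrq, Atp5mpl, Ndufv3, Ndufa10, Ndufb8, Ndufv1, Ndufa12 and Ndufb3. On the log2 CPM scale, in the library with the smaller range, their ranges were 5.88 for Ndufa4l2 and 2.69 for Ndufa4. They were 2.01 to 2.24 for the other 8 genes, against a median of 1.27 over the 67. A class at 0 UMIs was set to 3 counts. Ndufa4l2 had 0 UMIs in several of these classes, so its range depends on that floor and on class depth. Apart from Ndufa4l2, each of these 10 was highest in rod-like cells among the 7 classes in both libraries, as were 48 of the 67, beside 15.6% of the 6238 genes with at least 50 UMIs in 1 of these classes in each library.

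Ndufa4 (chr6:11900292-11907497, mm10, minus strand) had the widest range of the 10 after Ndufa4l2. It had 2201 CPM in KO and 2996 CPM in flox rod-like cells, and 1885 CPM in KO and 2337 CPM in flox RPE-like cells. NK-like cells came next with 725 CPM in KO and 689 CPM in flox, and B cell-like cells had 342 CPM in each library. Rod-like and RPE-like levels thus lay above those of every other class described. Its paralogue Ndufa4l2, known as a gene induced by hypoxia, ran the other way, with 120 CPM in KO and 87.2 CPM in flox fibroblast-like cells and 0 UMIs in RPE-like and rod-like cells. In the 5 KO and 9 flox mural-like cells it reached 1111 CPM in KO (23 UMIs) and 1011 CPM in flox (37 UMIs).

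Among the small subunits, Uqcrq (complex III) had 968 CPM in KO and 717 CPM in flox RPE-like cells, 580 CPM in KO and 760 CPM in flox rod-like cells, and 123 CPM in KO and 137 CPM in flox B cell-like cells. Ndufv3, an accessory protein of the NADH-oxidising module of complex I, had 989 CPM in KO and 1091 CPM in flox RPE-like cells, 419 CPM in KO and 604 CPM in flox rod-like cells, and 89.9 CPM in KO and 102 CPM in flox B cell-like cells. Both thus stood highest in RPE-like and rod-like cells. Ndufb8, an accessory subunit of the complex I membrane arm, favoured rods: 512 CPM in KO and 596 CPM in flox rod-like cells, against 214 CPM in KO and 125 CPM in flox RPE-like cells and 119 CPM in KO and 122 CPM in flox fibroblast-like cells. The core subunit Ndufv1, which binds NADH, had 183 CPM in KO and 138 CPM in flox rod-like cells, and 23.4 CPM in KO and 33.4 CPM in flox B cell-like cells. Ndufa10 had 248 CPM in KO and 294 CPM in flox rod-like cells, Ndufa12 had 246 CPM in KO and 319 CPM in flox, and Ndufb3 had 344 CPM in KO and 432 CPM in flox. All 3 are accessory subunits of complex I. In RPE-like cells Ndufa12 had 499 CPM in KO and 280 CPM in flox, and Ndufb3 had 540 CPM in KO and 623 CPM in flox. Ndufa10 had 153 CPM in KO (15 UMIs) and 62.3 CPM in flox (2 UMIs) there, and Ndufv1 143 CPM in KO (14 UMIs) and 62.3 CPM in flox (2 UMIs), so these lay below their rod-like levels.

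The c-subunit, which forms the rotating ring of ATP synthase, is encoded by Atp5g1, Atp5g2 and Atp5g3. The genes make the same mature protein after their different import sequences are removed, so the choice between them is one of gene use. Their promoter windows, from 250 bases before to 50 bases after the RefSeq start (GRCm38.p6), are shown because the classes differed in which gene they used. Capitals mark the NRF1 motif, GCGC followed by any base and TGCGC, searched on both strands.
Atp5g1, chr11:96075582-96075881, minus strand: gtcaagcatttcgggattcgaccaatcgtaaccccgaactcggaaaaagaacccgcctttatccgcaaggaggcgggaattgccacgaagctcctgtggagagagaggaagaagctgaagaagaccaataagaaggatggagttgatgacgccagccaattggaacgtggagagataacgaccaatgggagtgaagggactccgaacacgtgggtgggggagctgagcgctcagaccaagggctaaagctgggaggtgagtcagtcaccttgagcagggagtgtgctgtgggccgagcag
Atp5g2, chr15:102670998-102671297, minus strand: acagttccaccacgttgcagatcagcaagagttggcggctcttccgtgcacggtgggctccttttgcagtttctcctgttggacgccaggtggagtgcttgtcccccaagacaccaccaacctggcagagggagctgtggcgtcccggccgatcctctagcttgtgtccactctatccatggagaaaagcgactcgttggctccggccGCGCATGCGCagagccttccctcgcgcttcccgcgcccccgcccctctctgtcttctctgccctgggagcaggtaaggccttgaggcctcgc
Atp5g3, chr2:73911277-73911576, minus strand: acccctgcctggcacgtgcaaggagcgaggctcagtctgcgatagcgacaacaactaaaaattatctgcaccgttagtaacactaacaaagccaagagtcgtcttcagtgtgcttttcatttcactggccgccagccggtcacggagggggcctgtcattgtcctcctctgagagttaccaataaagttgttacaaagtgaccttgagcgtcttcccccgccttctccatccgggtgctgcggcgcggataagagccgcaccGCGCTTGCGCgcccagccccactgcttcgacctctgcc

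The Atp5g2 window held 1 match, starting 42 bases before the start, and the Atp5g3 window held 1 match after the start. For Atp5g1, no match says only that these letters are not in this window. NRF1, GABP and YY1 are factors known from the promoters of nuclear mitochondrial genes. A gene was counted where any of its windows held the motif. Of the 56 genes of the set with a window, 16 (28.6%) held the NRF1 motif, beside 1402 of all 27025 genes with a window (5.19%). Those 16 were Ndufa5, Ndufa6, Ndufa8, Ndufa11, Ndufb4, Ndufs5, Ndufs6, Sdha, Sdhd, Uqcrc1, Atp5c1, Atp5g2, Atp5g3, Atp5h, Atp5k and Atp5o. The YY1 motif AAGATGGCG stood in 7 (12.5%), beside 1.64% of all genes with a window. The GABP motif CCGGAAGT stood in 4 (7.14%), beside 4.31%, each on either strand. A match is a description of letters, not a bound site. The NRF1 carriers included both Atp5k, among the highest of the set in RPE-like over fibroblast-like cells, and Sdha, at the low end, on 4 KO and 1 flox UMIs.

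Atp5g1 led in RPE-like cells, while Atp5g2 led in each of the lymphocyte, monocyte, endothelial and unnamed classes. Of 208 c-subunit UMIs in KO RPE-like cells, Atp5g1 gave 56.7% (49.7 to 63.6), Atp5g2 19.7% and Atp5g3 23.6%. Of 62 in flox RPE-like cells, Atp5g1 gave 53.2% (40.1 to 66.0), Atp5g2 25.8% and Atp5g3 21%. The libraries thus gave a like order in RPE-like cells, with intervals that overlap. Rod-like cells divided the UMIs more evenly, with Atp5g1 at 33.1% in KO and 38.8% in flox and Atp5g2 at 40.5% in KO and 36.8% in flox. Fibroblast-like cells had Atp5g1 at 33.7% in KO and 35.9% in flox. In T cell-like cells Atp5g1 gave 27.4% in KO and 24.7% in flox, and in B cell-like cells 24.4% in KO and 22.8% in flox, with Atp5g2 at 54.2% in KO and 55.6% in flox B cell-like cells.

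By level the difference lay in Atp5g1. It had 1203 CPM in KO and 1028 CPM in flox RPE-like cells, against 226 CPM in KO and 239 CPM in flox fibroblast-like cells, or 5.31-fold in KO (4.17 to 6.75) and 4.31-fold in flox (2.91 to 6.20). Atp5g2 had 418 CPM in KO and 499 CPM in flox RPE-like cells, against 255 CPM in KO and 247 CPM in flox fibroblast-like cells. Atp5g3 had 499 CPM in KO and 405 CPM in flox RPE-like cells, against 191 CPM in KO and 179 CPM in flox fibroblast-like cells. Of the last 500 transcript bases, 11.1% of 60-base stretches of Atp5g1 and 19.0% of those of Atp5g2 also occur in other genes, so some reads may have been counted elsewhere or not at all.

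**Figure D3:**
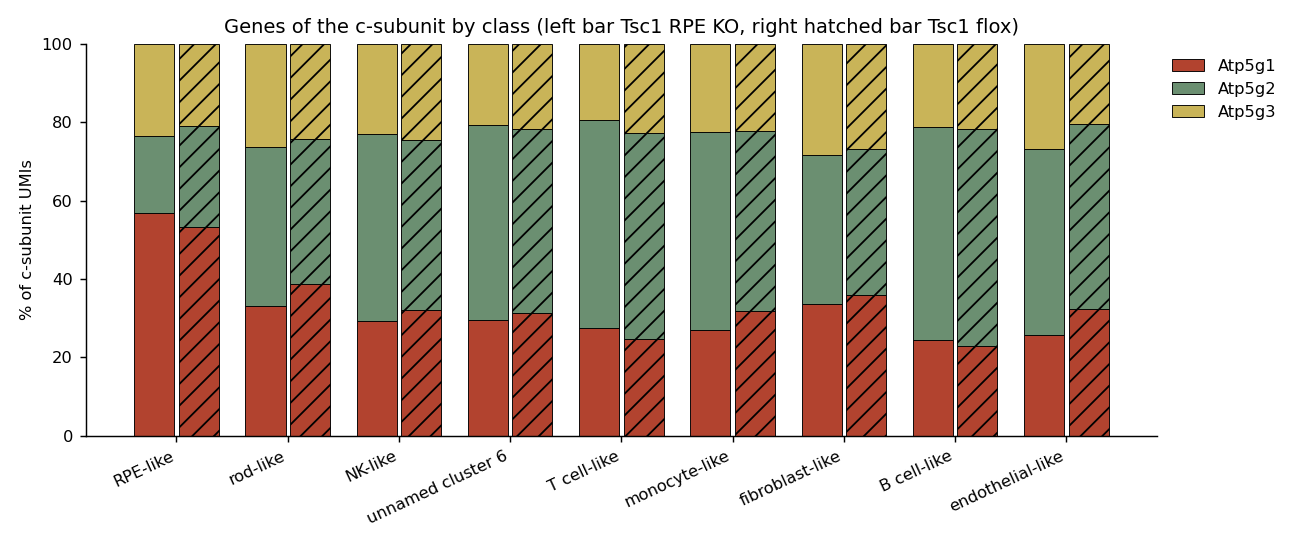
Share of c-subunit UMIs from Atp5g1, Atp5g2 and Atp5g3 in each class, with the KO bar left of the hatched flox bar. Atp5g1 takes 56.7% in KO and 53.2% in flox RPE-like cells, against 22.8% to 38.8% in the other classes.

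The balance of complex V to complex I differed between the RPE-like, rod-like and stromal classes and the blood cell classes. RPE-like cells had 0.857 complex V UMIs per complex I UMI in KO and 0.765 in flox, rod-like cells 0.648 in KO and 0.717 in flox, and fibroblast-like cells 0.726 in KO and 0.691 in flox. Endothelial-like cells lay close by at 0.735 in KO and 0.738 in flox. NK-like, T cell-like, B cell-like and monocyte-like cells lay at 1.0 to 1.07 in KO and 0.975 to 1.06 in flox. With Ndufa4 and Ndufa4l2 left out, RPE-like cells had 0.965 in KO and 0.878 in flox, rod-like cells 0.787 in KO and 0.898 in flox, and T cell-like cells 1.16 in KO and 1.15 in flox. UMIs are not divided by length, so the ratio compares molecules captured, not protein.

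Between the genotypes, the summed level in RPE-like cells differed by less than the counting error, with a KO over flox ratio of 1.01 (0.94 to 1.08). Complex I stood at 0.93 (0.84 to 1.02), complex II at 1.31 on 52 KO and 13 flox UMIs (0.70 to 2.62), complex III at 1.26 (1.03 to 1.55) and complex V at 1.04 (0.93 to 1.16). Complex III per complex I was 0.286 in KO and 0.211 in flox, a ratio of 1.36 (approximate interval 1.11 to 1.67). Uqcrb gave 76 of the complex III UMIs in KO and 11 in flox, and the complex III ratios were not computed without it. Core subunits of complex I had 126 UMIs in KO and 23 in flox, or 1284 CPM in KO and 717 CPM in flox. Their ratio was 1.79 (1.14 to 2.93), while accessory subunits had a ratio of 0.90 (0.81 to 1.01). Ndufs3 gave 27 of the core UMIs in KO and 0 in flox, and the core ratio was not computed without it. With barcodes down to 1000 UMIs, which gave 63 KO and 22 flox RPE-like cells, the core ratio was 1.42 (0.98 to 2.11) and that of complex III 1.21 (1.02 to 1.44). The mitochondrial share of UMIs was 3.0% in KO and 1.53% in flox RPE-like cells. Rpe65, Rgr and Rrh stood lower and Lrat higher in KO, as given above. The part of these differences in the ratios was not tested.

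Of the 67 genes, 39 had at least 50 UMIs over both libraries in RPE-like cells. Atp5l, Ndufa12, Uqcr10 and Uqcrb (10.3%) were at least 1.5-fold higher in KO, beside 14.9% of the 316 genes measured. Ndufa3 and Ndufb11 (5.13%) were at least 1.5-fold lower, beside 13.3%. At this setting both shares lay under the share of all genes. Of the 39 genes, 18 stood above a ratio of 1 and 21 below it. The median log2 ratio was -0.09, beside -0.03 for all genes measured. By complex, 5 of 19 complex I genes, 5 of 5 complex III genes and 8 of 15 complex V genes stood above 1, and no complex II gene had enough UMIs.

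**Figure D4:**
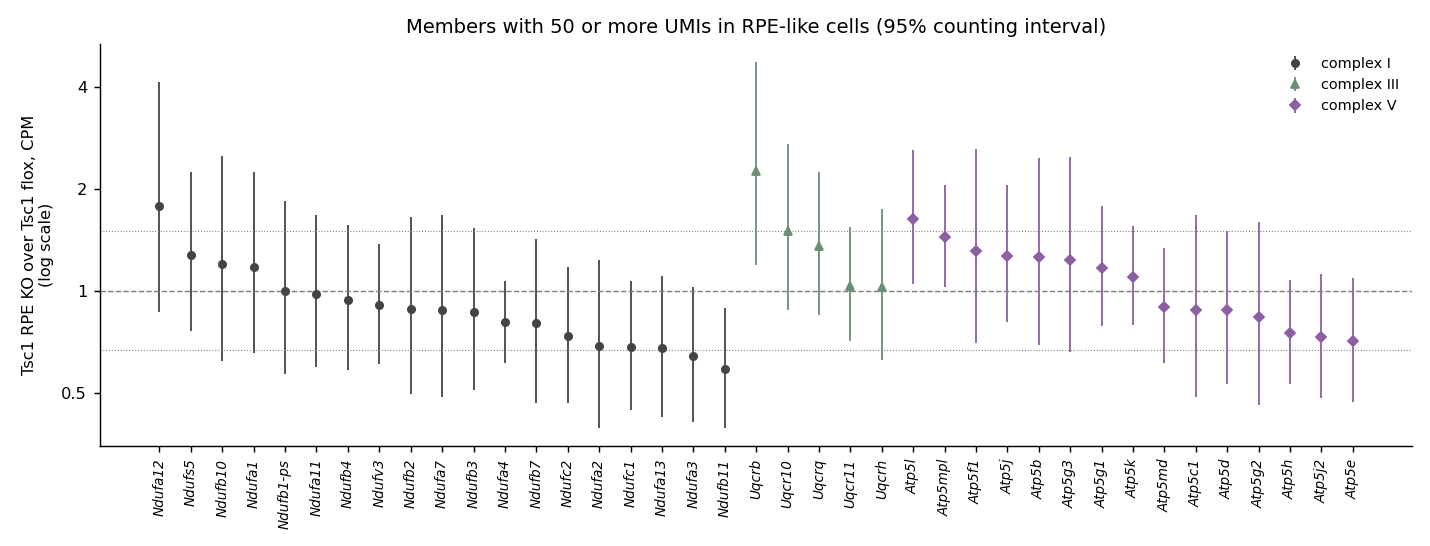
Ratio of KO to flox CPM in RPE-like cells for the 39 genes with at least 50 UMIs, with 95% counting intervals on a log axis and dotted lines at 1.5-fold in either direction. Uqcrb is at 2.26 and Ndufb11 at 0.59, and most intervals cross 1.

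All 5 measured complex III genes are small subunits. Uqcrb (chr13:66900617-66905378, mm10, minus strand), known as a ubiquinone-binding protein, had 775 CPM in KO (76 UMIs) and 343 CPM in flox (11 UMIs), a ratio of 2.26 (1.19 to 4.72). Its ratio was 1.54 (0.98 to 2.55) with the 1000-UMI minimum, and 10.2% of its 3′ 60-base stretches occur in other genes. Uqcr10 had 795 CPM in KO and 530 CPM in flox (1.5, 0.88 to 2.71), and Uqcrq had 968 CPM in KO and 717 CPM in flox (1.35, 0.85 to 2.23). Uqcr11, at 1192 CPM in KO and 1153 CPM in flox, and the hinge protein Uqcrh, at 703 CPM in KO and 685 CPM in flox, stood close to 1.

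Among accessory genes of complex I, Ndufb11 had 734 CPM in KO and 1246 CPM in flox (0.59, 0.39 to 0.89). It was the only measured gene of complex I whose interval excluded 1, and 11.8% of its 3′ 60-base stretches occur in Gm6444. Ndufa3 had 622 CPM in KO and 966 CPM in flox (0.64, 0.41 to 1.03), Ndufc1 703 CPM in KO and 1028 CPM in flox, and Ndufa4 was 0.81 (0.61 to 1.07). On the other side Ndufa12 had 499 CPM in KO and 280 CPM in flox (1.78, 0.87 to 4.12). Ndufs5 had 754 CPM in KO and 592 CPM in flox, and 39.9% of its 3′ 60-base stretches occur in BC002163. Ndufa1 had 550 CPM in KO and 467 CPM in flox, and Ndufb10 448 CPM in KO and 374 CPM in flox. Ndufs3, a core subunit named after its values were seen, had 27 UMIs in KO and 0 in flox. Its ratio was 2.94 with flox set to 3 counts, and the lower bound of its counting interval was 2.23. Of its 3′ 60-base stretches, 50.6% occur in Gm12251.

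In complex V, Atp5l (subunit g) had 1264 CPM in KO and 779 CPM in flox (1.62, 1.05 to 2.60), and Atp5mpl had 1926 CPM in KO and 1340 CPM in flox (1.44, 1.03 to 2.05). Both are supernumerary membrane subunits, and a further gene of that group, Atp5j2 (subunit f), lay on the other side with 795 CPM in KO and 1091 CPM in flox (0.73, 0.48 to 1.12). The stalk subunits differed as well, with Atp5j (coupling factor 6) at 989 CPM in KO and 779 CPM in flox. Atp5h (subunit d) had 1121 CPM in KO and 1496 CPM in flox, and 39.0% of its 3′ 60-base stretches occur in other genes. Atp5e, the F1 epsilon subunit, had 775 CPM in KO and 1091 CPM in flox (0.71, 0.47 to 1.09). Complex V thus had genes on either side of 1 in its membrane, stalk and head parts.

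In rod-like cells, which the labelled Cre does not target, the 67 genes stood lower in KO: the ratio was 0.81 (0.78 to 0.84). Complex I stood at 0.84 (0.80 to 0.88), complex III at 0.80 (0.72 to 0.90), complex V at 0.76 (0.71 to 0.81) and complex II at 1.09 (0.79 to 1.52). Of 64 measured genes 49 lay below 1, with a median log2 ratio of -0.29, beside 0.05 for 2656 genes measured. Atp5e, Atp5k, Atp5j2, Atp5l, Atp5g1, Uqcrfs1 and Ndufs4 were at least 1.5-fold lower, beside 6.17% of all genes, and 2 of 64 were at least 1.5-fold higher, beside 16.6%. Atp5e had 470 CPM in KO and 855 CPM in flox (0.55, 0.44 to 0.70). Cone markers summed to 2859 CPM in KO (5 of 5 seen) and 743 CPM in flox (4 of 5 seen) rod-like cells, rod markers to 72348 CPM in KO and 94186 CPM in flox, and the median depth was 2869 UMIs in KO and 2074.5 in flox. Leaving out the 5 KO and 1 flox cells with at least 5 cone-marker UMIs gave 0.79, and the part of the other differences was not tested. At resolution 2 the rod-like class split into clusters whose mix differed between the libraries. The first held 143 KO and 24 flox cells, with a set ratio of 0.92 (0.88 to 0.97) and shares of 2.27% in KO and 2.46% in flox. The second held 23 KO and 18 flox cells, or 13.9% of KO and 42.9% of flox rod-like cells, with a ratio of 0.81 (0.76 to 0.87) and shares of 3.30% in KO and 4.05% in flox. Its median depth was 2317 UMIs in KO and 1825 in flox, against 3159 in KO and 2913.5 in flox in the first. Complex V stood at 0.87 (0.80 to 0.94) in the first and 0.75 (0.66 to 0.84) in the second. Complex I stood at 0.97 (0.91 to 1.04) in the first and 0.86 (0.78 to 0.94) in the second. The summed level was thus nearer to 1 in the cluster with most cells than in the class as a whole.

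Endothelial-like cells also stood lower in KO, at 0.78 (0.74 to 0.84), with 10 of 39 measured genes at least 1.5-fold lower, beside 8.94% of all genes, and Ndufa2 at least 1.5-fold higher, beside 7.31%. The accessory gene Ndufa6 had 103 CPM in KO and 283 CPM in flox (0.36, 0.20 to 0.63). Among endothelial-like cells of 1500 to 4000 UMIs the summed ratio was 0.94 (0.85 to 1.05). Leukocyte markers summed to 588 CPM in KO (8 of 19 seen) and 86.8 CPM in flox (6 of 19 seen) endothelial-like cells, and the ratio was 0.78 without the 3 KO barcodes that held at least 10 leukocyte UMIs.

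Monocyte-like cells stood higher in KO, at 1.11 (1.08 to 1.14). Erythroid markers summed to 1049 CPM in KO and 248 CPM in flox monocyte-like cells (4 of 5 seen in each). Free RNA was estimated at 2.81% of UMIs in KO and 0.263% in flox. In the other KO classes described, that estimate lay between 0.157% and 0.873%. The ratio was 1.11 with free RNA subtracted, a step that does not address RNA particular to monocyte-like cells. This class joined a pair of clusters with ratios of 1.10 (1.06 to 1.15) and 1.18 (1.13 to 1.22). Ndufs4 was its only gene at least 1.5-fold higher, at 110 CPM in KO and 63.5 CPM in flox, beside 10.6% of all genes, and 0 of 66 were lower, beside 6.81%. The ratio for the whole set was 1.01 in fibroblast-like, 1.02 in NK-like, 1.01 in B cell-like and 1.03 in unnamed cells. It was 1.02 in T cell-like cells, and 0.98 there with ribosomal protein, mitochondrial and haemoglobin genes left out of the total. NK markers summed to 1629 CPM in KO (6 of 6 seen) and 632 CPM in flox (5 of 6 seen) T cell-like cells, and neutrophil markers to 678 CPM in KO (5 of 5 seen) and 53.1 CPM in flox (3 of 5 seen) unnamed cells. Their part in these ratios was not tested.

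In these classes few genes of the set passed 1.5-fold. In fibroblast-like cells 0 of 67 were higher, beside 3.98%, and 0 lower, beside 7%, and in T cell-like cells 0 of 66 were higher, beside 4.55%, and 0 lower, beside 2.4%. In NK-like cells Ndufv1 was higher, beside 3.62%, and 0 of 64 were lower, beside 5.32%. In unnamed cells Sdhc was higher, beside 4.54%, and 0 of 66 were lower, beside 4.74%. In B cell-like cells Sdha was lower, beside 4.08%, with a ratio of 0.61 (0.45 to 0.81), and 0 of 66 were higher, beside 2.61%.

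**Figure D5:**
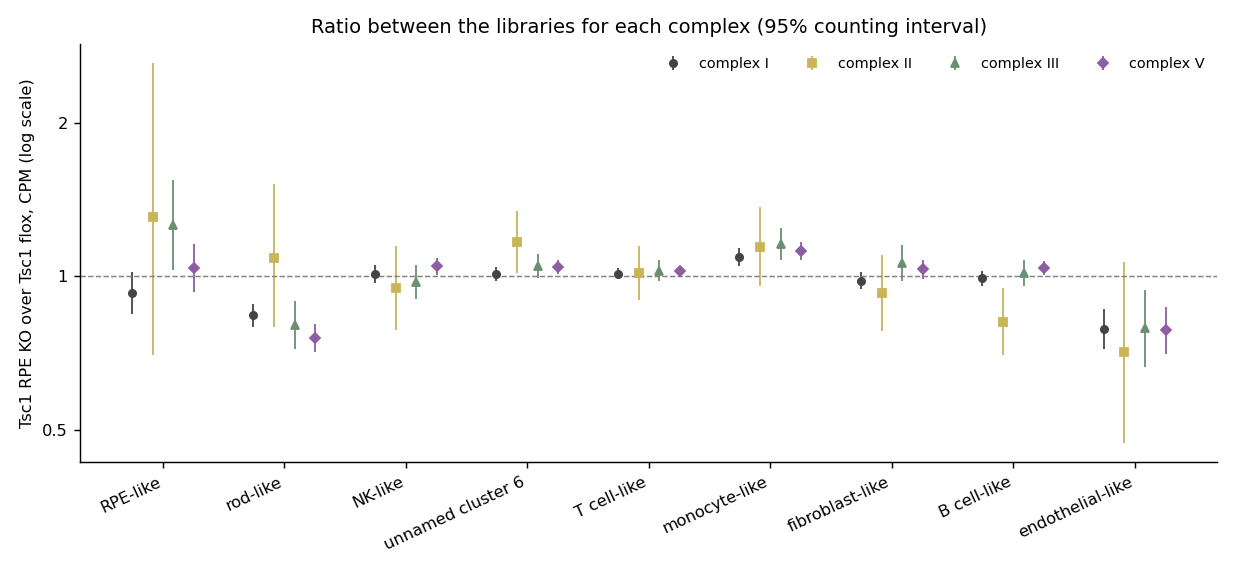
Ratio of KO to flox CPM for complexes I, II, III and V in each class, with 95% counting intervals on a log axis. Complexes I, III and V lie below 1 in rod-like and endothelial-like cells and near 1 in fibroblast-like and lymphocyte classes, and complex II has the widest intervals in RPE-like cells.

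Other genes of the pathway in RPE-like cells were read from lists. The 10 mitochondrially encoded subunits of complexes I, III and V summed to 17224 CPM in KO and 8756 CPM in flox, a ratio of 1.97 (1.73 to 2.24), beside 1.01 for the nuclear set. All 7 of them with enough UMIs were at least 1.5-fold higher in KO, against 14.9% of all genes. Among them mt-Nd1 had 1050 CPM in KO and 312 CPM in flox (3.37, 1.76 to 7.23), and mt-Atp6 had 5289 CPM in KO and 2617 CPM in flox (2.02, 1.60 to 2.58). In rod-like cells the same list had a ratio of 0.97 (0.93 to 1.0). Assembly factors summed to 1182 CPM in KO and 748 CPM in flox (1.58, 1.01 to 2.57), with 0 of 28 measured singly. The carriers and porins had a ratio of 0.96 (0.82 to 1.12), with Slc25a4, the ADP/ATP carrier, at 1519 CPM in KO and 1651 CPM in flox. Subunits outside the symbol rule had 0.99 (0.76 to 1.30), citric acid cycle genes 1.32 (0.89 to 1.99) and regulators 1.31 on 16 KO and 4 flox UMIs (0.42 to 5.38).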

How the data were processed

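The authors deposited raw UMI counts per gene and barcode for each library, with no barcode filter. Cell Ranger 2.1.1 and mm10 stand in the submitters' processing notes, while the deposited matrix headers name Cell Ranger 4, and the labels describe a 3′ v2 kit. Which version and kit gave the counts is not given in the sources used here. The libraries held 12574364 UMIs in KO and 10771118 in flox. Barcodes needed at least 1500 UMIs (1912 in KO and 1585 in flox), 200 genes and at most 20% mitochondrial UMIs, and Scrublet removed 22 KO and 9 flox barcodes as doublets. Cells were clustered with scanpy 1.11.5 and leidenalg 0.10.2 (2000 variable genes without the set and mitochondrial genes, 30 principal components, 20 neighbours, resolution 1), which gave 18 clusters. A cluster was named where at least 3 markers of 1 class were each in 10% of its cells and 2-fold above the other clusters. In addition, no other class could have more of its markers among the cluster's 10 leading genes. The unnamed class passed 3 macrophage markers (Adgre1, Mrc1 and Cd68) but failed that condition. Its 10 leading genes held 0 macrophage markers and 1 marker of another class. The macrophage-like class planned for comparison did not form under any setting. RPE-like barcodes with at least 10 leukocyte-marker UMIs were left out (1 in KO, 0 in flox).

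Counts were summed per class and library and divided by the class total (CPM). Intervals for ratios are exact conditional binomial, for CPM exact Poisson and for shares exact binomial (Clopper-Pearson), with scipy 1.17.1, and floors use 3 counts. The interval for complex III per complex I is approximate. A gene counted as measured with at least 50 UMIs in the class over both libraries. The scripts were tested on simulated data. Genes and lists were chosen with earlier results of these data known. Genes named in RPE-like cells were the 4 highest and 4 lowest of complex I and the 3 of complexes III and V, ranked by the interval bound nearest 1. Genes named across classes were the 10 with the widest log2 CPM range, with the c-subunit genes always given. Genes singled out by a count of classes past 1.5-fold, and the ends of the RPE-like over fibroblast-like range, were named after their values were seen. Annotation was GENCODE M21, in which all 67 genes had their identifier, and promoter windows came from RefSeq (GRCm38.p6) for 56 genes. On the same strand 10 of the 67 overlap another gene, and 8 share at least 10% of their 3′ 60-base stretches with another gene. Alternatives changed the UMI minimum, resolution, clustering genes, CPM total, free RNA, depth, fold and UMI limits. The values of 1 gene of the set are not reported here.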

Additional observations from a re-analysis of the deposited data

Results flagged for a closer look

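The summed level of the 67 genes lay on opposite sides of 1 in different classes, with counting intervals that left out 1. The KO over flox ratio was 0.808 in rod-like cells and 0.785 in endothelial-like cells. It was 1.11 in monocyte-like cells, 1.03 in unnamed cells and 1.02 in T cell-like cells. Within the rod-like class the ratio was 0.92 (0.88 to 0.97) and 0.81 (0.76 to 0.87) in the clusters found at resolution 2, whose mix differed between the libraries. NK markers in T cell-like cells stood at 1629 CPM in KO and 632 CPM in flox, neutrophil markers in unnamed cells at 678 CPM in KO and 53.1 CPM in flox, and erythroid markers in monocyte-like cells at 1049 CPM in KO and 248 CPM in flox. Their part was not tested. Subtraction of free RNA left the monocyte-like ratio at 1.11, but it does not address RNA particular to monocyte-like cells. The difference between the classes was not tested, since each class of a genotype came from 1 library.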

How the results depend on the processing

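No paired analysis was possible because each genotype had 1 library and no result came from a test. Among the planned results, 134 values under an alternative setting stayed in direction and within the counting interval or 1.5 times the count, 14 moved and 2 reversed. The reversed values were log2 ratios of KO over flox in T cell-like cells, at -0.028 without ribosomal protein, mitochondrial and haemoglobin genes and at -0.00065 with a UMI minimum of 10% of the 99th percentile of the top barcodes. In cells of 1500 to 4000 UMIs, a setting chosen after seeing the data, the log2 ratio was 0.13 in T cell-like and -0.034 in B cell-like cells. In that window the log2 ratio over fibroblast-like cells was 1.72 in flox RPE-like cells, and 1.05 in KO and 1.43 in flox rod-like cells. Without Ndufa4 and Ndufa4l2, also chosen after seeing the data, it was 0.91 in KO and 1.21 in flox rod-like cells. With leukocyte-bearing barcodes kept it was 1.68 in KO RPE-like cells. Genes at least 1.5-fold higher in KO RPE-like cells numbered 9 of 56 with a minimum of 20 UMIs, beside 20.3% of all genes, and 12 of 65 with 1 UMI in each library, beside 16.1%, and 1 of 39 passed 2-fold, beside 7.28%. Genes lower in KO numbered 4 of 65 with 1 UMI in each library, beside 50.9%. The all-gene shares at that limit depend on depth: a gene with 1 UMI in each library had 10.2 CPM in KO and 31.2 CPM in flox. In cells of 1500 to 4000 UMIs 6 of 37 were lower, beside 13.8%, and 0 of 39 were lower past 2-fold, beside 3.48%. These 6 of 37, and the 12 of 65 higher with 1 UMI in each library, lay above the share of all genes. By cluster at resolution 2, also chosen after seeing the data, the ratio in rod-like cells was 0.92 and 0.81. Among other results 161 values stayed and 5 moved. The moved ones included the monocyte-like ratio, at 1.33 in the depth window and 1.05 at resolution 2, and the Atp5g1 share in the depth window, at 27.3% in B cell-like and 32.1% in T cell-like KO cells. The 12 flox RPE-like cells limit the depth: a gene at 0 UMIs there could reach 93.5 CPM. The causes of the changes were not tested.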
